A study of Mus musculus with 60 samples.

Results

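The intestine of St6galnac2 knockout (KO) mice was compared with that of wild-type (WT) mice of the same line after the tissue label of 1 animal had been mended. Of the 60 arrays in the series, 24 came from the St6galnac2 line, and 12 of these were labelled intestine or brain. Arrays were selected on the deposited log2 value of Fut9, a fucosyltransferase gene that is abundant in brain: an array below 6 was taken as intestine. In all, 5 arrays of the 60 passed. They came from KO animals 9361 (male, -/-) and 9093 (female, -/-) and from WT animals 9362 (male, +/+), 9099 (male, +/+) and 9094 (female, +/+). The array of animal 9099 is labelled brain, and the array of the same animal labelled intestine was left out. KO animal 9100 gave no intestine array. All animals are labelled healthy. The labels name small intestine as the tissue of the line, give neither ages nor the construction of the allele, and do not say whether the animals were littermates. Small intestine of 3 C57 mice of a separate set was hybridised as an outside control.

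The array is a custom Affymetrix design for genes of glycan synthesis, glycan recognition and signalling, hybridised with labelled cRNA made from total RNA. It carries 1246 probe sets, of which 963 were matched to 909 genes. Values are log2 expression, so a difference of 1 is a doubling of signal, and levels of different probe sets were not set against each other. In bulk RNA, fewer cells of a type and less RNA per cell cannot be told apart. With 2 KO and 3 WT animals an exact permutation test of 1 gene has 10 arrangements and cannot go below p = 0.1.

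The enzyme encoded by St6galnac2 adds sialic acid to the N-acetylgalactosamine that is linked to serine or threonine in mucin-type O-glycans. Related enzymes of the ST6GalNAc and ST3Gal families sialylate the same core structures, and C1galt1 with its chaperone C1galt1c1 builds the core 1 disaccharide on which several of them act. In the gut such O-glycans cover the mucins of the epithelial surface and of goblet cells.

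The mended array carried the profile of gut on markers that the rule had not used. Fut9, which chose the arrays, read 2.93 to 3.21 on the 5 arrays taken as intestine and 9.27 to 9.92 on the 7 taken as brain. The 3.21 belonged to the mended array of 9099 and was the value just inside the threshold, and 9.27 (WT animal 9094) was the value just outside. Lgals4, which encodes a galectin of intestinal epithelium, read 13.54 to 13.73 on the intestine arrays and 5.92 to 6.49 on the brain arrays. Reg3b, a secreted gut lectin, read 12.47 to 13.49 on the intestine arrays and 4.32 to 4.57 on the brain arrays. The myelin genes Mag and Ugt8a went the other way, with Mag at 5.08 to 5.21 on the intestine arrays and 10.02 to 10.92 on the brain arrays. Over genes, the mended array correlated at r = 0.982 to 0.991 with the other 4 intestine arrays, which correlated at 0.981 to 0.993 among themselves. Its r with the brain arrays was 0.701 to 0.705. These correlations run across genes, which are not independent replicates. The left-out array of 9099 labelled intestine correlated at 0.998 with the second brain array of that animal.

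**Figure D1:**
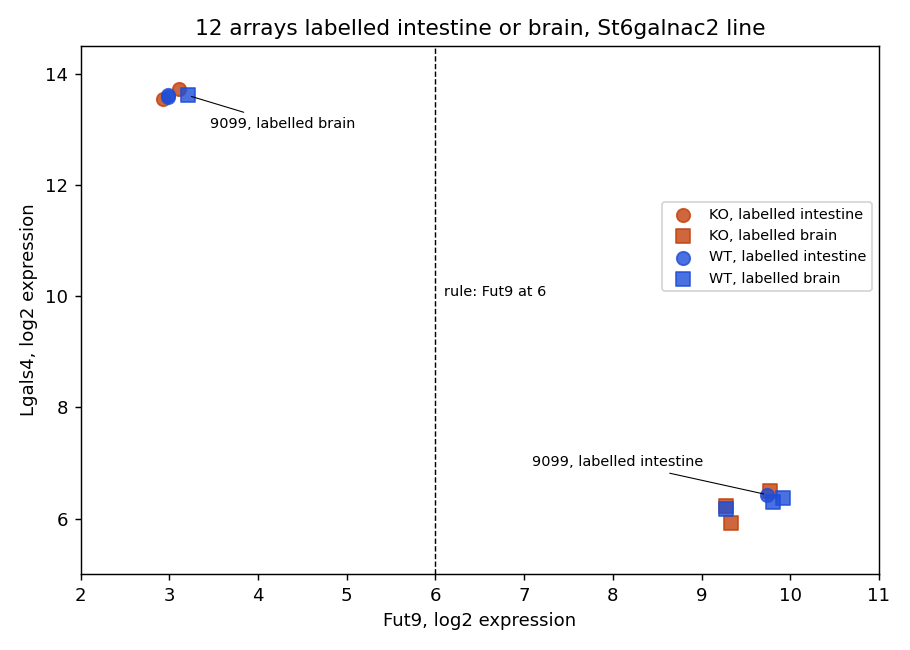
Log2 expression of Fut9 (x axis, the gene that chose the arrays) and of Lgals4 (y axis) on the 12 arrays of the St6galnac2 line labelled intestine or brain. Colour marks genotype and shape the deposited tissue label; the 5 arrays left of the dashed line at 6 lie at 13.54 to 13.73 for Lgals4, and the 7 on the right at 5.92 to 6.49.

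The targeted gene did not separate the genotypes. St6galnac2 (chromosome 11, 116676703 to 116695782, GRCm38.p6) read 8.65 and 8.74 in KO animals 9361 and 9093, against 8.74, 8.49 and 8.77 in WT animals 9362, 9099 and 9094. The groups overlapped, and the difference was 0.01 ± 0.14 (SE), with a 95% confidence interval of -0.33 to 0.36 and an exact permutation p of 0.9. Here and below, differences are limma estimates adjusted for sex and can depart from the difference of group means. The permutation p belongs to the difference of means, here 0.03. The C57 arrays lay at 8.68 to 9.94. Where the probes lie relative to the deleted part of the gene is not given in the sources used here, and a probe set outside that part would not check the genotype. KO and WT are therefore the genotypes as labelled throughout. With the labels as deposited the same difference had been 0.82 ± 1.20, because the WT mean then held a brain-like value of 5.67. Mending the label thus moved the WT mean and left the KO values as they were.

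Across named probe sets no gene separated KO from WT intestine after correction. limma called 0 of 963 named probe sets (0%) at an adjusted p under 0.05, and the smallest adjusted p was 0.27. At an unadjusted p under 0.05, 13 probe sets (1.35%) were higher and 14 (1.45%) lower in KO. Together these were below the share of 0.05 that this threshold lets through where nothing differs. The median difference over all named probe sets was 0.03, with 578 above 0 and 385 below. Mending the label narrowed the spread between animals: the median residual SD was 0.143, against 0.381 with the labels as deposited, where 2 probe sets had an unadjusted p under 0.05. Without animal 9099 the residual SD was 0.109 and 60 probe sets had an unadjusted p under 0.05, again with 0 called. That fit had 1 residual degree of freedom against 2 with the label mended, so its SD cannot be read as a narrower spread. In 85 of 909 genes (9.35%) both KO animals lay above all WT animals, and in 45 (4.95%) both lay below. By the 10 arrangements of the animals, either pattern has a probability of 0.1 in a gene that genotype does not affect. Neither share was above that.

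**Figure D2:**
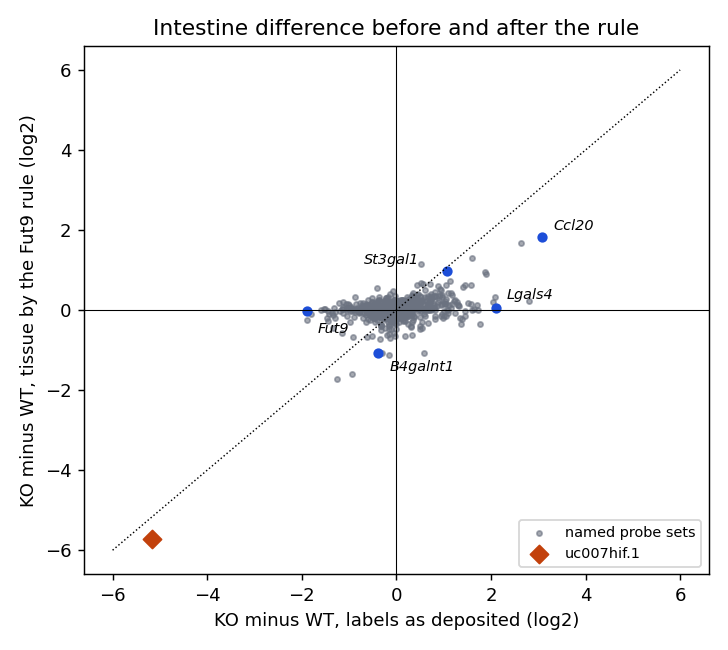
KO minus WT difference in intestine for 963 named probe sets and the unnamed probe set uc007hif.1, with the labels as deposited (x axis, log2) and with tissue taken by the Fut9 rule (y axis, log2). The dotted line marks equal differences. Lgals4 is at 2.10 on the x axis and 0.05 on the y axis, Fut9 at -1.89 and -0.02, whereas uc007hif.1 is at -5.16 and -5.71.

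Among all 1246 probe sets limma called 1 (0.0803%), and it was far lower in KO. The probe set uc007hif.1 carries a transcript identifier that the tables used here do not pair with a gene, so it is given by that identifier. It read 4.22 and 4.08 in KO animals 9361 and 9093, against 10.10, 9.81 and 9.77 in WT animals 9362, 9099 and 9094. The groups were separated by a gap of 5.55, and the mended array of 9099 lay between the other WT animals. The difference was -5.71 ± 0.14 (SE; 95% interval -6.07 to -5.36), with 52.5-fold higher measured signal in WT (limma, adjusted p = 0.000172). The exact permutation p was 0.1, the smallest that 2 against 3 animals allow. The KO values lay near 4.21, the lower quartile of all values of the series, and no background call was used, so the fold is a lower bound if they are background. With the labels as deposited (-5.16, adjusted p = 0.993) or with the C57 arrays in the fit (-5.71, adjusted p = 1), limma did not call it. The C57 arrays had a term of their own, so they left the difference unchanged and added only their spread to its SE (1.2). Without KO animal 9361 the fit set female 9093 against female 9094 alone, at -5.69, and limma did not call it either.

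The same probe set was low in every KO array of the line and in some WT tissues. All 11 KO arrays read 4.08 to 4.87, including the brain of KO animal 9100 at 4.12. In brain the KO arrays read 4.12 to 4.28 and the WT arrays 7.39 to 8.11, a difference of -3.58 that limma called in the fit of all 4 tissues (adjusted p = 0.0127). Of these 4 WT brain arrays, 2 came from animal 9099 and were averaged in that fit. In lymph node the KO arrays read 4.14 to 4.63 and the WT arrays 4.59 to 8.68 (adjusted p = 0.145). In thyroid the genotypes overlapped, with KO at 4.49 to 4.87 and WT at 4.46 to 5.03, both near the dim end. Every WT intestine array was above every WT array of the other 3 tissues, while WT lymph node spread from below to above the WT brain arrays. The 3 C57 small intestine arrays were spread from 5.13 to 9.67, and the lowest came from an array that also had low Cdhr5 (6.35) and the lowest C57 value of B4galnt1 (8.60).

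**Figure D3:**
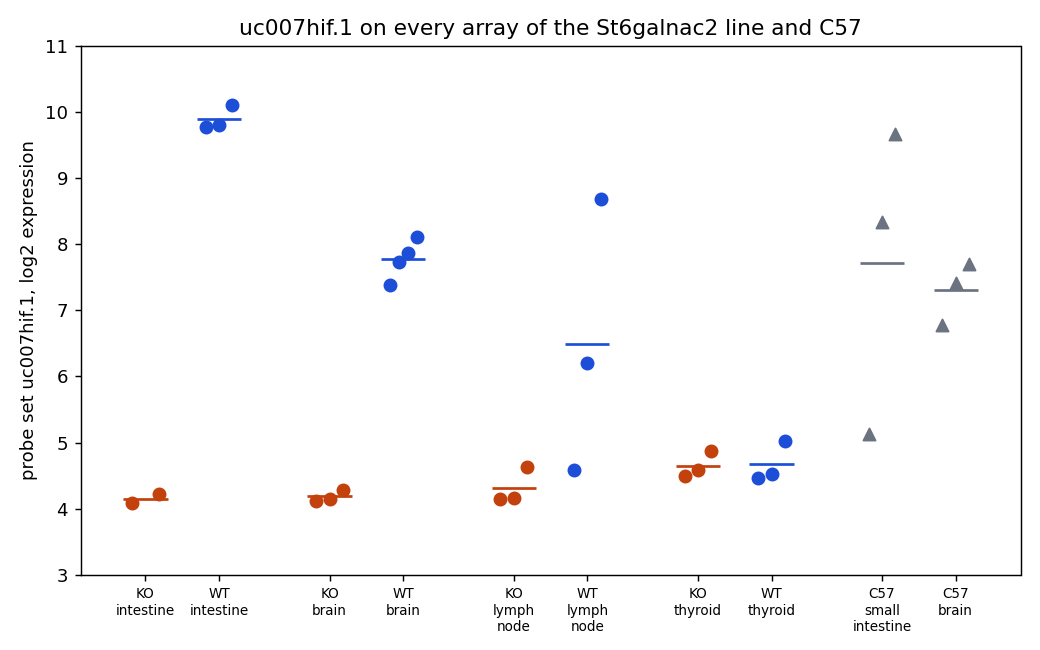
Log2 expression of probe set uc007hif.1 on each array of the St6galnac2 line (KO orange, WT blue, tissue by the Fut9 rule) and of C57 mice (grey triangles), with bars at group means. The 2 KO intestine arrays sit at 4.08 and 4.22 and the 3 WT intestine arrays at 9.77 to 10.10; thyroid shows no separation.

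Outside the KO arrays of the line, the level of uc007hif.1 went along most closely with B4galnt1. Over the other 49 arrays Pearson's r was 0.901 and Spearman's rho 0.902 for B4galnt1, followed by Slc35c2 (r = 0.822) and B3galt4 (r = 0.745). These arrays share tissues and animals, so the values are a description of likeness. A second unnamed probe set with a neighbouring identifier, uc007hie.1, was looked at after its values were seen. It read 5.01 and 4.68 in KO animals, against 5.45, 5.40 and 6.05 in WT animals, a difference of -0.82 ± 0.24 (limma, adjusted p = 1).

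B4galnt1 had the smallest p of all named genes and did not pass. It encodes the N-acetylgalactosaminyltransferase that makes the complex gangliosides GM2 and GD2 (chromosome 10, 127165156 to 127172340, GRCm38.p6). Its KO values were 9.21 and 8.65, against WT values of 10.18, 10.22 and 9.80. The groups did not overlap, and the difference was -1.06 ± 0.12 (95% interval -1.37 to -0.76; limma, adjusted p = 0.27; exact permutation p = 0.1). Without the sex term it was -1.14 ± 0.22 (limma, adjusted p = 0.78), the difference of means to which the permutation p belongs. Without animal 9099 it was again -1.06, and with the labels as deposited -0.38. Of the 3 C57 arrays, 2 read 10.11 and 10.17, with the WT animals, and the third read 8.60.

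St3gal1, which encodes a sialyltransferase that caps the core 1 disaccharide of O-glycans, was the largest difference among sialyltransferases. It read 8.45 and 7.99 in KO animals, against 7.38, 7.21 and 7.25 in WT animals. Both KO animals lay above every WT animal, and the difference was 0.98 ± 0.15, or 1.97-fold (unadjusted p = 0.00136 in limma; adjusted p = 0.657). The C57 arrays lay at 7.46 to 7.89, between the groups. It also had one of the smallest p-values with the labels as deposited (1.07 ± 0.29).

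The other enzymes of glycan metabolism among the genes with the smallest p differed less. Larger differences, with overlapping groups and larger p, were seen for Mgat4c (1.68 ± 1.05) of N-glycan branching and the sulfotransferase gene Chst8 (1.16 ± 0.59). Fut4, a fucosyltransferase of Lewis-type antigens, read 7.07 and 6.81 in KO animals, against 7.42, 7.44 and 7.33 in WT animals (-0.43 ± 0.12). Its other 2 probe sets were at -0.63 and -0.33, each with overlapping groups. Npl, the lyase that breaks down free sialic acid, read 9.73 and 9.05 in KO animals, against 9.28, 9.41 and 7.48 in WT animals (0.90 ± 0.29). The groups overlapped, and WT animal 9094 stood lowest. Without the sex term the Npl difference was 0.67 ± 0.61. It ranged from 0.38 to 1.58 when 1 animal was left out. The 0.38 set male KO animal 9361 against male WT animals 9362 and 9099. The 1.58 set female 9093 against female 9094 alone. Xylt2, a xylosyltransferase that starts glycosaminoglycan chains, was at 6.73 and 6.58 in KO animals and 6.14, 6.50 and 6.15 in WT animals (0.42 ± 0.15). None of these passed the adjusted test, where every named gene other than B4galnt1 and St3gal1 had an adjusted p of 1.

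**Figure D4:**
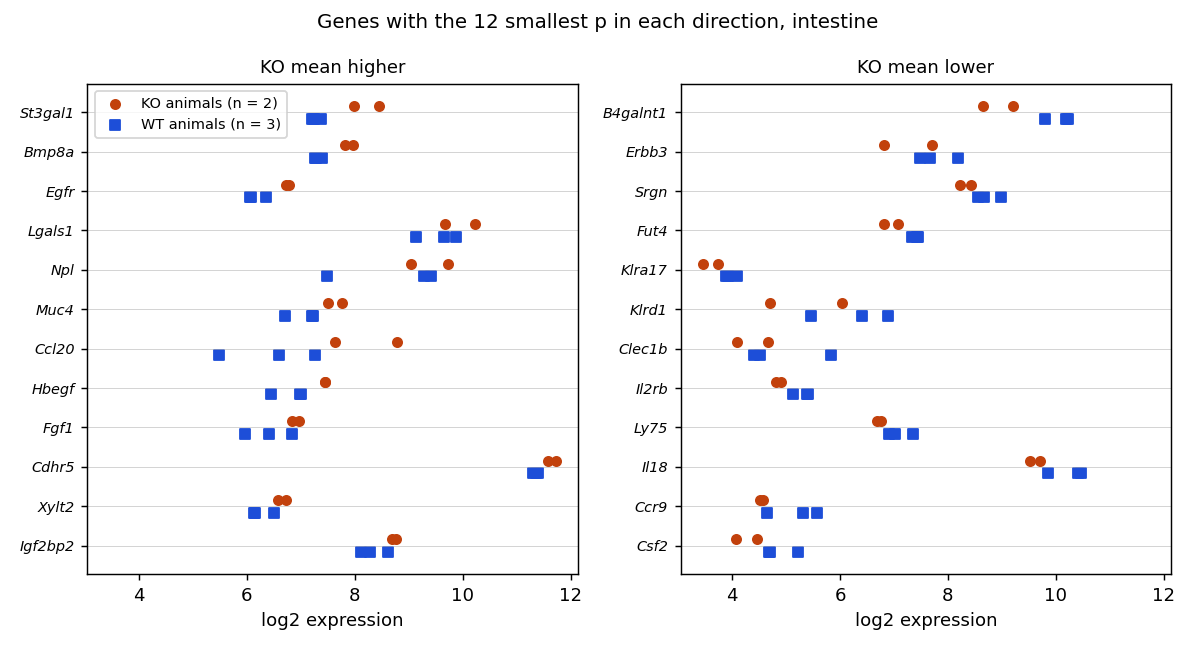
Log2 expression per animal for the 12 named genes with the smallest p among those higher in KO (left) and the 12 among those lower in KO (right), intestine by the Fut9 rule; orange circles are 2 KO animals and blue squares 3 WT animals. The genes were picked for their small p, so that the groups do not overlap in 18 of the 24 follows in part from the choice (over all 909 genes 9.35% lay above and 4.95% below), and none passed the adjusted test; levels are comparable within a gene, not between genes.

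Receptor and growth factor genes made up several of the smallest p-values. Bmp8a, a bone morphogenetic protein gene, read 7.96 and 7.81 in KO animals, against 7.40, 7.26 and 7.29 in WT animals (0.58 ± 0.12). Egfr, the receptor for epidermal growth factor, read 6.72 and 6.79 in KO animals, against 6.06, 6.36 and 6.08 in WT animals (0.60 ± 0.15). A second Egfr probe set differed by 0.08 ± 0.14 with overlapping groups, so the 2 probe sets of this gene disagreed. Hbegf, a ligand of that receptor, was at 7.45 in both KO animals, against 7.01, 6.44 and 6.98 in WT animals. Erbb3, a receptor of the same family, was lower in the KO mean with overlapping groups (-0.64 ± 0.14, and -0.52 ± 0.32 without the sex term). It read 6.81 and 7.70 in KO animals, against 7.49, 7.67 and 8.19 in WT animals. Fgf1 had a difference of 0.56 ± 0.20, and KO animal 9093 had the same value, 6.83, as WT animal 9099. It ranged from 0.33 to 0.86 when 1 animal was left out. Of the 6 measured genes of epidermal growth factor ligands and receptors, 3 were above 0 and 3 below, with a median of 0.27.

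Cdhr5, Muc4, Lgals1 and Igf2bp2 were also higher in the KO mean. Cdhr5, a cadherin of the enterocyte brush border, read 11.72 and 11.57 in KO animals, against 11.39, 11.35 and 11.30 in WT animals. The groups did not overlap, and the difference was small, at 0.32 ± 0.12. Muc4, a membrane mucin, read 7.51 and 7.76 in KO animals, against 7.23, 7.20 and 6.71 in WT animals (0.62 ± 0.20), and its other 2 probe sets were at 0.20 and 0.35. Its difference was 0.30 among the males (the fit without 9093 or 9094). For female 9093 against female 9094 alone (the fit without 9361) it was 1.04. Lgals1, a galectin of stromal and immune cells, differed by 0.49 ± 0.13 with overlapping groups (0.40 ± 0.27 without the sex term). Igf2bp2, an RNA-binding protein gene, differed by 0.43 ± 0.16.

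Several lymphocyte genes and the chemokine Ccl5 had lower KO means, and the chemokine Ccl20 had a higher one. Of 28 measured chemokine genes, 12 had differences above 0 and 16 below. Klrd1, which encodes the CD94 receptor of natural killer and cytotoxic T cells, read 4.71 and 6.03 in KO animals, against 5.46, 6.41 and 6.88 in WT animals (-1.07 ± 0.31). The groups overlapped, and the 2 KO animals differed more from each other than 9093 did from WT animal 9099. Ccl5, a chemokine made by activated T cells, read 8.20 and 8.34 in KO animals, against 8.51, 9.91 and 9.57 in WT animals (-1.11 ± 0.43). WT animal 9362 lay near the KO animals, so 2 of the 3 WT animals carried that difference. Il2rb, a chain of the interleukin 2 receptor, read 4.81 and 4.91 in KO animals, against 5.12, 5.41 and 5.38 in WT animals. It was dim, below the median of all values, 5.485, in every animal. Ccr9, the receptor that guides lymphocytes to small intestine, read 4.51 and 4.58 in KO animals, against 4.64, 5.31 and 5.58 in WT animals. It was dim as well, with only WT animal 9094 above that median. A second Ccr9 probe set differed by -0.59 ± 0.26, with overlapping groups. Ccl20, a chemokine of follicle-associated epithelium, read 7.64 and 8.79 in KO animals, against 6.59, 7.26 and 5.48 in WT animals (1.83 ± 0.61). Its groups did not overlap, and its spread within each genotype exceeded 1 log2 unit. The Ccl20 difference was 0.72 among the males (the fit without 9093 or 9094). For female 9093 against female 9094 alone (the fit without 9361) it was 3.31.

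The remaining genes with low p-values were dim or modest. Srgn, the proteoglycan of granules in blood cells, had -0.47 ± 0.12, and Il18, an epithelial cytokine, had -0.64 ± 0.23. The lectin receptor genes Klra17 (-0.41), Clec1b (-0.71) and Ly75 (-0.40) and the cytokine gene Csf2 (-0.62) were also lower in the KO mean. When 1 animal was left out, Csf2 ranged from -1.14 to -0.23, Clec1b from -1.17 to -0.36 and Ly75 from -0.58 to -0.26. Csf2 and Klra17 had levels of 3.46 to 5.22, below the median of all values, 5.485. The 5 measured markers of T and NK cells all had differences below 0, with a median of -0.57, against 0.04 over all 909 named genes. Their summed linear signal was 153 and 237 in KO animals, against 176, 294 and 400 in WT animals, and the ranges overlapped. Klrk1 and Klrc1, also on that list, lay at -0.06 and -0.01, and at 2.89 to 4.08 they were dim. The part of lymphocyte content in the differences of Klrd1, Ccr9, Il2rb and Ccl5 was not tested.

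Among the ST6GalNAc and ST6Gal genes the KO and WT values lay together. Of 7 measured genes, 6 had differences above 0 and 1 below, with a median of 0.08 and a range of -0.07 to 0.21, and 0 passed the test. St6galnac1, the enzyme that makes sialyl-Tn antigen, read 3.70 and 3.88 in KO animals, against 3.79, 3.74 and 3.60 in WT animals, all dim. St6galnac6, which acts on glycolipids, read 6.86 and 6.65 in KO animals, against 6.67, 6.69 and 6.54 in WT animals. St6galnac3 had the largest difference of the family, 0.21 ± 0.13, at levels of 3.47 to 3.82. St6gal1, the enzyme that sialylates N-glycans, read 6.81 and 6.66 in KO animals, against 6.45, 7.40 and 6.67 in WT animals. Its interval of -0.84 to 0.70 was the widest of the family, and WT animal 9099 was the highest. St6galnac4 (0.08) and St6galnac5 (0.05) completed the measured genes.

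The other sialyltransferases and the O-glycan core enzymes were likewise close, apart from St3gal1. Of 6 alpha-2,3-sialyltransferase genes, 5 were above 0 and 1 below, with a median of 0.12. St3gal4 (0.11), St3gal3 (0.17), St3gal5 (0.13) and St3gal2 (0.05) all had overlapping groups. St3gal6 was at -0.49 ± 0.28, with KO values of 8.33 and 8.14, against WT values of 8.90, 8.18 and 9.0. Here the mended array of 9099 lay among the KO animals, and without that animal the difference was -0.72. Of 6 core enzyme genes, 2 were above 0 and 4 below, with a median of -0.05. C1galt1 differed by 0.20 ± 0.17 and its chaperone C1galt1c1 by -0.02 ± 0.14. Gcnt3, which builds core 2 and core 4 in mucous epithelium, was at -0.15 ± 0.24, and Gcnt1 at 0.02 ± 0.14. B3gnt3, which extends core 1, was at -0.15 ± 0.14, and B3gnt6, which makes core 3, at -0.09 ± 0.13. Each of these 6 intervals, at 95% and not adjusted for the number of probe sets, reached at least 0.20 to either side of 0. Differences of that size were therefore not excluded. The adjusted test did not call larger differences either, such as St3gal1 (0.98) and B4galnt1 (-1.06).

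**Figure D5:**
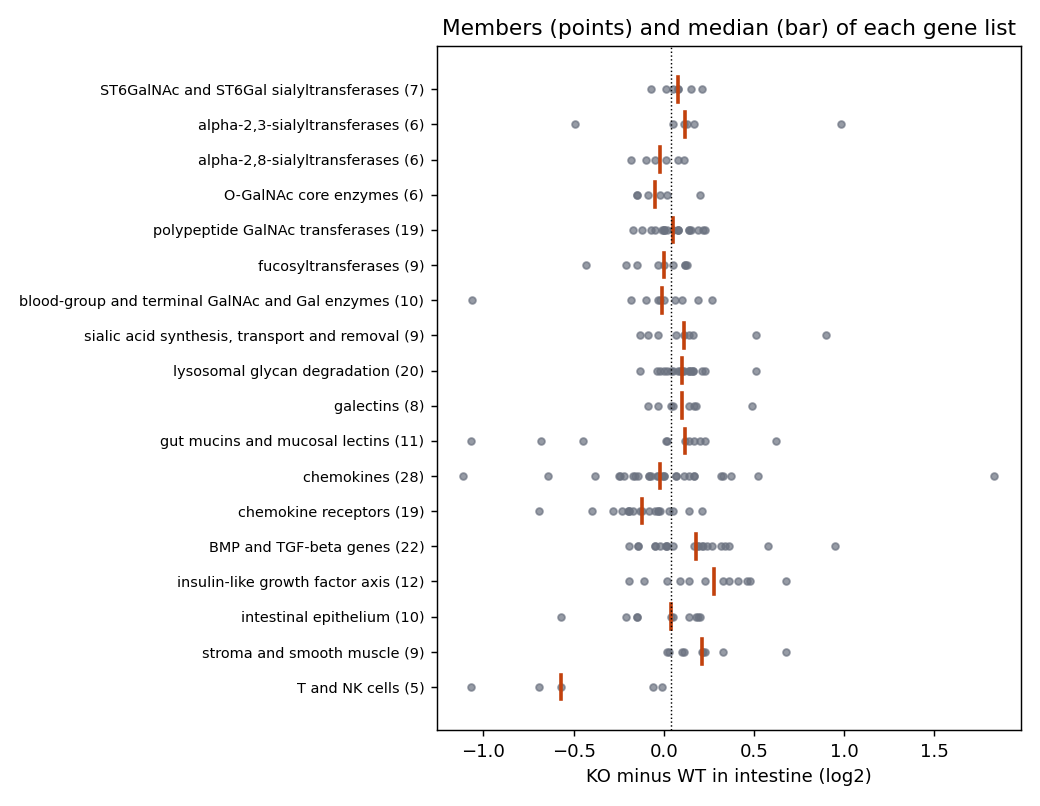
KO minus WT difference in intestine (x axis, log2) for the measured members of 18 gene lists, with the number of members in brackets; grey points are genes, orange bars the list medians, and the dotted line the median of 0.04 over all named genes. The ST6GalNAc and ST6Gal members span -0.07 to 0.21, and the 5 markers of T and NK cells have a median of -0.57.

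Of the members of broader gene lists 0 passed the test. The 19 polypeptide GalNAc transferases, which start O-glycans, had a median of 0.05 and a range of -0.17 to 0.23. The 9 fucosyltransferases had a median of 0.00, the 20 genes of lysosomal glycan degradation 0.10 and the 23 heparan sulfate enzymes 0.04. The widest spread was in chemokines, where 28 genes spanned -1.11 to 1.83 around a median of -0.02. Among 19 chemokine receptors, 15 lay below 0, with a median of -0.12. Among 12 genes of the insulin-like growth factor axis, 10 lay above 0, with a median of 0.28, and among 22 BMP and TGF-beta genes 16 did, with a median of 0.18. Over all 909 named genes, 552 lay above 0 and 357 below, with a median of 0.04.

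Markers of the cells in the samples were checked by the same fit. The 10 measured markers of intestinal epithelium had a median difference of 0.04, and their summed linear signal was 29545 and 26792 in KO animals, against 26871, 28855 and 25111 in WT animals. The 9 markers of stroma and smooth muscle were all above 0, as were 552 of all 909 named genes. Their median was 0.21, and their sum was 2301 and 1769 in KO animals, against 1785, 1643 and 1931 in WT animals. The 3 measured pancreas-associated genes were below 0: Reg1 read 10.51 and 9.91 in KO animals, against 11.55, 9.50 and 12.39 in WT animals. That spread among WT animals exceeded the difference between genotypes. Reg2 was at -0.68 ± 0.25 (-1.27 to -0.23 when 1 animal was left out), with 5.64 in WT animal 9094 against 4.26 to 4.52 in the other 4 animals. The 11 measured neural markers, B4galnt1 among them, had a median of -0.02, and summed to 979 and 836 in KO animals, against 1542, 1620 and 1213 in WT animals and 6781 to 8366 on the brain arrays. The other 10, without B4galnt1, summed to 388 and 435 in KO animals, against 383, 428 and 321 in WT animals. The part of these cell types in the differences above was not tested.

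The 10 genes with the smallest p under the deposited labels included 4 that were also among the smallest with the label mended, St3gal1, Egfr, Ccl20 and Hbegf. For 5 of the other 6, Ccl12 excepted, the mended array of WT animal 9099 lay within or above the range of the KO animals. Bmp2, a bone morphogenetic protein gene, was at 0.95 ± 0.49, against 1.87 ± 0.68 with the labels as deposited. It read 8.14 and 8.09 in KO animals, against 6.86, 8.33 and 6.59 in WT animals, so the mended array was the highest of all 5. Igfbp6, a binding protein of insulin-like growth factors, was at 0.46 ± 0.26 and had been 0.82 ± 0.26. Neu1, the lysosomal sialidase, was at 0.51 ± 0.24, Clec3b at 0.36 ± 0.17 and Ccl12 at 0.32 ± 0.13. Cxcl10 was at 0.52 ± 0.50, with KO animals at 5.67 and 8.06, so only 9093 stood above the WT animals.

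The KO effect in intestine was compared with the mean KO effect in thyroid, lymph node and brain of the same line, which shared animals. limma called 0 of 963 named probe sets (0%), and before adjustment 24 had a p under 0.05. The lowest adjusted p was 0.998. Ccl20 had the smallest p: its KO effect was 1.83 in intestine, against 0.11 in thyroid, 0.04 in lymph node and -0.04 in brain. B4galnt1 had effects of -1.05 in intestine, against 0.64 in thyroid, 1.05 in lymph node and -0.30 in brain, a difference of -1.52 ± 0.50. The lymph node effect rested largely on the array of WT animal 9094. It read 6.65, against 9.26 and 8.67 in the other WT animals and 9.10 to 9.53 in KO animals. Klrd1 (-1.26), Csf2 (-0.74), Reg2 (-0.68) and Il27ra (-0.58) followed. Klrd1 had effects of -1.07 in intestine, against 0.06 in thyroid, 0.57 in lymph node and -0.03 in brain. Il27ra had -0.23 in intestine, with overlapping groups, against 0.05 in thyroid, 0.95 in lymph node and 0.07 in brain. The Il27ra difference thus rested largely on lymph node. For uc007hif.1 the difference between tissues was -3.79 ± 0.68 with an adjusted p of 0.0905 over all probe sets. Without KO animal 9361, which left 1 KO intestine array, 6 probe sets were called, of which Mgat4c (4.34 ± 0.30) had the smallest p. That lone array is assumed to vary as the other groups do, and with both KO animals Mgat4c differed by 1.57 (limma, adjusted p = 0.998).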

How the data were processed

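Total RNA was extracted with Trizol and biotin-labelled cRNA was hybridised to a custom array, per the labels' protocols. The deposited log2 expression values were made with RMA (robust multi-array average), per the submitters' processing notes; its version is not given in the sources used here. The values were used as deposited. Because RMA normalises arrays jointly, a mislabelled array enters the normalisation of all arrays in its run. Probe sets were named by matching the RefSeq accession in their identifiers to RefSeq genes of GRCm38.p6: 963 of 1246 matched 909 genes, 48 of them through several probe sets, and the one with the highest mean over all 60 arrays represented the gene. A suffix for probes that match further transcripts marks 217 named probe sets, 6 of them among the 24 genes with the smallest p.

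Each animal was 1 replicate. KO and WT intestine were compared with limma 3.58.1 in R 4.3.3 (lmFit, eBayes, sex as covariate, 2-sided, Benjamini-Hochberg, called at an adjusted p under 0.05), with 2 residual degrees of freedom. The intestine array of 9093 was taken as female from its title. The comparison between tissues fitted sex within each tissue, with animals as a random block (correlation -0.00705). The steps were tested on simulated data. The array design and the number of arrays limit the precision. Named genes were St6galnac2, the 12 smallest p in each direction, the 10 smallest with the labels as deposited, the 6 smallest between tissues, all measured members of the ST6GalNAc and ST6Gal, ST3Gal and O-glycan core lists, and at most 4 members of other lists. The arrays, genes and 37 gene lists were chosen with earlier results of these data known, and the test of uc007hif.1 alone was added after its call was seen. Lists were described by counts and medians, with no test of their own.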

Additional observations from a re-analysis of the deposited data

Results flagged for a closer look

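The array of WT animal 9099 labelled intestine stayed outside the comparison, and it carried a brain signal. The array was left out by its Fut9 value, so that reading is fixed by the choice: Fut9 read 9.74 there, against 2.93 to 3.21 on the 5 arrays taken as intestine and 3.09 to 3.19 on the 3 C57 small intestine arrays. Of genes the choice did not use, Mag read 10.47, against 5.08 to 5.21 on the 5 intestine arrays, and Lgals4 read 6.43, against 13.54 to 13.73. How the 2 arrays of the animal came to carry each other's tissue was not tested.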

How the results depend on the processing

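Over 15 alternatives to the fit of KO against WT intestine, the number of named probe sets called was 0 in each. Testing all probe sets gave 1, the unnamed uc007hif.1. The numbers at an unadjusted p under 0.05 were 27 as reported, 2 with the labels as deposited, 8 with the C57 arrays in the fit, 16 without dim probe sets, and 16 to 60 when 1 animal was left out. Taking neighbouring animal numbers as a replicate block drops animal 9099 from the KO effect. Each block left then holds 1 sex, so this is the same fit as leaving out 9099 and no separate check. It gave 0 called and 60 unadjusted, with St6galnac2 at -0.05 and uc007hif.1 at -5.78 (limma, adjusted p = 0.000879). The numbers share only their order, and no label pairs the animals. Over all probe sets, and with alternatives chosen after seeing the data, the count of 1 became 0 with the labels as deposited and with the C57 arrays in the fit, and was 0 to 1 over left-out animals. The difference of uc007hif.1 was -5.16 (adjusted p = 0.993) and -5.71 (adjusted p = 1) under those 2 settings, and -5.78 to -5.64 over left-out animals (-5.73 to -5.64 with 9099 kept), with the call ended without KO animal 9361 (-5.69, adjusted p = 0.0621). St6galnac2 moved to 0.82 with the labels as deposited and was -0.05 to 0.07 over left-out animals (lowest without 9099). Of 355 values of the 24 genes with the smallest p, 4 turned sign, all with the labels as deposited: Fgf1 at -0.40, Erbb3 at 0.19, Fut4 at 0.32 and Ly75 at 0.31. Of 721 values of the 49 single genes, 32 turned sign and 0 were called; Cxcl10, for example, was 0.52 as reported and -0.28 without 9093 or 9094. Leaving out 1 animal moved 7 of the 24 genes by over 1.5 times. With sex in the fit, leaving out female 9093 or 9094 gives the other female no weight. These 2 settings are therefore the same for the KO effect, and the 15 alternatives hold fewer distinct fits. Leaving out KO animal 9361 sets female 9093 against female 9094 alone. In the comparison between tissues the count was 0 to 6 over left-out animals, with the 6 without KO animal 9361, and the unadjusted number was 24 as reported, 49 without animal 9099, 14 without the sex term, 7 without 9093 or 9094 and 37 without 9361; without the animal as a replicate block it was 25, with 0 called. With 2 KO animals the spread within KO rests on 1 pair, within it sex and animal cannot be told apart, and differences of dim probe sets may be understated.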

Other observations

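In the B4galnt1/B4galnt2 line, which was not part of the comparison, uc007hif.1 read 4.25 to 7.11 on the 18 double knockout arrays and 4.09 to 7.10 on the 12 WT arrays. In testes it read 6.98 to 7.04 in double knockout animals and 5.88 to 6.76 in WT animals. In thymus it read 4.25 to 4.57 in double knockout animals and 4.50 to 7.10 in WT animals. In mammary gland it read 4.50 to 7.11 in double knockout animals and 4.09 to 4.92 in WT animals. The low values of the 11 KO arrays of the St6galnac2 line, 4.08 to 4.87, were thus not shared by all tissues of the other line. These differences were not tested.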
